A study of Mus musculus with 12 samples.

Results

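Splenic macrophage and scavenger genes, 6 of the 561 genes on an immunology panel, were followed in cells of the red lineage from the mouse spleen: Emr1, Csf1r, C1qa, C1qb, Tgfbi and Cd36. They were chosen by name, with earlier results of these data known. The first 5 are typical of macrophages, and Cd36 was included as a contrast, because it is also carried by red cell precursors. Emr1 and Tgfbi were lower after acute hypoxia than in normal samples, by 5.78 and 6.10 times, while Cd36 was 2.23 times higher. Emr1 and Tgfbi needed normal samples to enter the test, which favoured a lower level after treatment. After acute blood loss Emr1 was 3.13 times lower and Cd36 2.62 times higher, whereas C1qa and C1qb did not pass the test.

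The cells came from adult male F1 mice of CBA and C57BL/6 parents, aged 3 to 5 months. Normal mice lived under standard conditions, in blood loss mice 0.5 to 0.8 mL was drawn at the retro-orbital sinus under isoflurane, and hypoxia mice spent 16 h in a hypobaric chamber at -46 kPa, an altitude above 4500 m. All spleens were taken on day 3. Splenocytes were passed over a Ficoll-Urografin gradient and bound to magnetic beads through biotinylated antibody against Ter-119, which marks red cells and their late precursors. RNA of 500000 cells a sample went onto the nCounter Mouse Immunology v1 panel, which counts barcoded probes without amplification. The groups compared hold 3 normal, 4 blood loss and 4 hypoxia samples. Samples are not tied to animals in the labels, and p-values then measure only the spread between these samples, which may be technical. Selection by beads enriches cells and leaves others in the sample, so a gene listed here was not measured in red cell precursors alone. In bulk RNA, fewer cells of a type and less RNA per cell cannot be told apart.

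Erythroblasts mature in islands, clusters of developing red cells around a central macrophage that holds them, feeds them and takes up their expelled nuclei. In the mouse the spleen makes red cells under stress, and its red pulp macrophages also remove old red cells from the blood. Csf1r is the receptor for the growth factor that keeps most tissue macrophages alive, and Emr1, now named Adgre1, is the F4/80 surface protein by which mouse macrophages are recognised. C1qa and C1qb encode chains of C1q, the recognition molecule of the classical complement pathway, which macrophages make and which tags dying cells for uptake. Tgfbi is a secreted matrix protein induced by TGF-beta. Cd36 is a class B scavenger receptor that takes up oxidised lipoproteins, fatty acids and dying cells, and is found on macrophages, platelets, endothelium and immature red cells.

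The stretch of 250 bases upstream of the gene start was looked up in RefSeq's sequence for build GRCm38.p6, and 3 of the 6 members matched, C1qb, Tgfbi and Cd36. These are shown because Cd36 was called higher after hypoxia, where C1qb and Tgfbi were called lower, and because letters bound by a myeloid and by a red cell factor can be sought in them. The capitals mark GAGGAA, the core of the site of PU.1, the myeloid transcription factor on which the Csf1r gene depends. AGATAA, a core bound by GATA factors of the red cell lineage, was sought as well, each on both strands, and no match of one core overlapped a match of the other. C1qb lies at chr4:136886201-136886450 on the minus strand, Tgfbi at chr13:56609336-56609585 on the plus strand and Cd36 at chr5:17835897-17836146 on the minus strand.
C1qb: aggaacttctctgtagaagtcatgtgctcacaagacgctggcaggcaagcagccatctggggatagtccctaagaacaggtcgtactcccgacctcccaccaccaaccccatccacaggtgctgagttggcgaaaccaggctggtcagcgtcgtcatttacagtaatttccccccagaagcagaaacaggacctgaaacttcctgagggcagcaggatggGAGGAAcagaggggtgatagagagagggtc
Tgfbi: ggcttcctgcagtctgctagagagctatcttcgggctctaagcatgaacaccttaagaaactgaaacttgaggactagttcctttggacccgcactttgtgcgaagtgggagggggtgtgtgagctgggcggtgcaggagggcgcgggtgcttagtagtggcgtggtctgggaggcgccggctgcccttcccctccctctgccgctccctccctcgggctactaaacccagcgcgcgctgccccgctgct
Cd36: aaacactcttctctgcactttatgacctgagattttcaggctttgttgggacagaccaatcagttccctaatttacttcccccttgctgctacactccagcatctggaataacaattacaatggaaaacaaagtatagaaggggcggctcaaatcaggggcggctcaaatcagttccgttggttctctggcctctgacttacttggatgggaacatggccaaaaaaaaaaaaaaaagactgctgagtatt
C1qb held 1 copy of GAGGAA, and none of the 3 held AGATAA. Of 27025 windows of the same length, 23.1% held GAGGAA and 10.3% held AGATAA, so these letters are common. The Tgfbi window had 15 CpG pairs and 62.4% G and C, against 6 pairs and 55.2% in C1qb and 3 pairs and 43.2% in Cd36.

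Depth differed between groups and within the normal group. Total counts were 43956 in Normal 1, 161054 in Normal 2 and 253712 in Normal 3, 7016 to 31006 after blood loss and 44254 to 81370 after hypoxia. Counts were scaled by the geometric mean of 6 housekeeping genes, and 1 raw count then stood for 0.162 scaled counts in Normal 3 and 7.42 in the third blood loss sample. These genes were not steady themselves: after scaling, Rpl19 ran from 450 to 2286 in the normal samples, and the mean of Eef1g was 661 in normal and 347 in blood loss samples. The deposited column Normal 4 was left out, because it equals the median of the other 3 plus 3 for each of the 561 genes. Of 547 endogenous genes, 282 were tested, those with 20 or more raw counts in at least 3 samples. All 6 members passed, but Csf1r did so only through the 3 normal samples, so the filter favoured a higher level there. Emr1, C1qa and Tgfbi also needed normal samples to pass, so the filter leaned the same way for them. C1qb and Cd36 did not need them. Over all tested genes the median log2 change was -0.26 for blood loss against normal, -0.56 for hypoxia against normal and -0.30 for hypoxia against blood loss, whereas TMM factors put these medians at 0.03, 0.03 and -0.01 and size factors over all genes at -0.64, -0.09 and 0.54.

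The macrophage identity of the RNA was checked on the other macrophage markers of the panel, of which there are 6. Cd163, Marco, Msr1 and Trem2, receptors of resident macrophages, stayed under a raw count of 20 in all 11 samples. Vcam1, an adhesion molecule of red pulp and island macrophages, had raw counts of 10, 90 and 146 in the normal samples, 3 to 6 after blood loss and 2 to 10 after hypoxia. Scaled for depth, Vcam1 spanned 11.3 to 27.7 (normal), 7.03 to 22.2 (blood loss) and 1.38 to 9.84 (hypoxia). Fcgr1, the high-affinity IgG receptor, had raw counts of 1, 36 and 64 in the normal samples and at most 7 in any treated sample. Scaled, it spanned 1.13 to 11.1 (normal), 4.22 to 10.2 (blood loss) and 0.571 to 3.94 (hypoxia). The blood loss and normal ranges of Vcam1 and Fcgr1 thus overlapped once depth was scaled, so their raw counts alone show no loss there. None of the 6 could be tested, and their summed scaled count was 28.3 to 49.6 in the normal group, 40.8 to 61.1 in the blood loss group and 12.4 to 20.7 in the hypoxia group. The blood loss sums show no level: in the third sample 5 of the 6 genes had a raw count of 1, the lowest value in the file, each worth 7.42 scaled counts. The name macrophage genes therefore rests here on the members themselves. On the red cell side, Tfrc, the transferrin receptor, was present in every sample, and Kit stayed under 20 in all 11.

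The scaled count of Emr1 was 45.2, 82.6 and 71.0 in the 3 normal samples, 27.7, 10.2, 22.2 and 25.3 after blood loss, and 6.20, 27.5, 7.99 and 7.88 after hypoxia. Every treated sample lay below every normal one, and the second hypoxia sample stood as high as the blood loss group while the other 3 were under 8. Its log2 fold change was -1.65 (SE 0.42) for blood loss against normal, with an adjusted p of 0.00507 by edgeR's quasi-likelihood test with Benjamini-Hochberg adjustment. For hypoxia against normal it was -2.53 (SE 0.37, adjusted p 8.47e-06). After blood loss 17.0% of the tested genes were called lower and 26.2% in either direction, and 16.7% lay below all normal samples among the 28.0% without overlap. After hypoxia 36.5% were called lower, 43.6% in either direction, and 35.5% lay below all normal samples. The raw counts after blood loss were 9, 4, 3 and 18, so that group's Emr1 level is set by few counts. Emr1 needed normal samples to pass the filter, which favoured a lower level after treatment, and its p-values carry that limit. Both calls against normal were kept with no filter. Between the treatments the log2 difference was -0.88 (SE 0.46, adjusted p 0.194) for hypoxia against blood loss, and the 2 groups overlapped.

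Csf1r, the receptor, had scaled counts of 40.7, 74.6 and 59.7 in the normal samples, 46.1, 33.1, 22.2 and 14.1 after blood loss, and 8.96, 18.7, 7.42 and 4.50 after hypoxia. Its 3 groups stood in falling order, with the first blood loss sample inside the normal range and the second hypoxia sample inside the blood loss range. No treated sample reached a raw count of 20, the highest being 15 after blood loss and 19 after hypoxia. Because Csf1r was let into the test only through the normal samples, the filter favoured a lower level after treatment. Its changes against normal are given as a description. The log2 change was -2.66 (SE 0.37) for hypoxia against normal. For blood loss against normal it was -1.08 (SE 0.39), and it ran from -1.47 to -0.53 under 24 other settings. It was -0.77 with TMM factors, -0.86 without Normal 2, -1.06 without Normal 3 and -0.73 without the fourth blood loss sample. The counts of called members further on include Csf1r, and its call after blood loss was lost under 13 of these 24 settings.

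Tgfbi, the matrix protein, had scaled counts of 37.3, 72.4 and 61.3 in the normal samples, 30.8, 58.5, 7.42 and 21.1 after blood loss, and 8.27, 12.8, 5.71 and 11.8 after hypoxia. All 4 hypoxia samples lay below all normal samples, while the blood loss samples ran from the normal range down into the hypoxia range. After hypoxia 35.5% of the tested genes lay below all normal samples and 36.5% were called lower. The third blood loss sample had a raw count of 1, the lowest value in the file, so its scaled count has no precision. Hypoxia against normal gave a log2 change of -2.61 (SE 0.36, adjusted p 2.80e-06). Tgfbi too needed normal samples to pass the filter, which favoured a lower level after treatment, and its p-values carry that limit. The call after hypoxia was kept with no filter. Blood loss against normal gave -0.87 (SE 0.37, adjusted p 0.0825), which did not pass, but became -1.40 (adjusted p 0.0168) without the second blood loss sample and -1.07 (adjusted p 0.0232) without Normal 1.

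C1qb, the B chain of C1q, had scaled counts of 35.0, 115 and 78.1 in the normal samples, 117, 66.2, 74.2 and 43.6 after blood loss, and 22.7, 60.0, 13.7 and 7.88 after hypoxia. The blood loss and normal samples overlapped widely, and of the hypoxia samples the second lay inside that range and the other 3 below it. C1qa, the A chain, had scaled counts of 18.1, 55.8 and 46.2 in the normal samples, 43.1, 35.6, 29.7 and 33.7 after blood loss, and 12.4, 43.3, 9.13 and 3.38 after hypoxia. It showed the same order of samples within hypoxia as C1qb, with the second highest and the fourth lowest, and its groups overlapped in every comparison.

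For blood loss against normal the log2 fold change was -0.09 (SE 0.58, adjusted p 0.913) for C1qb and -0.21 (SE 0.61, adjusted p 0.806) for C1qa. Both directions turned under TMM factors, to 0.25 and 0.13, and with Normal 1 as the only normal sample, to 1.06 and 0.99. For hypoxia against normal C1qb had -1.65 (SE 0.56, adjusted p 0.0278) and C1qa -1.41 (SE 0.57, adjusted p 0.0583), on the 2 sides of the threshold. The C1qb call was lost under 7 of 25 other settings, such as TMM factors (-1.03, adjusted p 0.152) and the fit without Normal 2 (-1.24, adjusted p 0.138), and leaving out Normal 3, the first or the third hypoxia sample also ended it (adjusted p 0.0591, 0.0666 and 0.0742). Without the second hypoxia sample C1qa came to -2.35 (adjusted p 3.75e-06). The 2 chains kept close to each other: the ratio of C1qa to C1qb raw counts ran from 0.368 to 0.774 over all 11 samples and overlapped in all 3 comparisons.

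**Figure D1:**
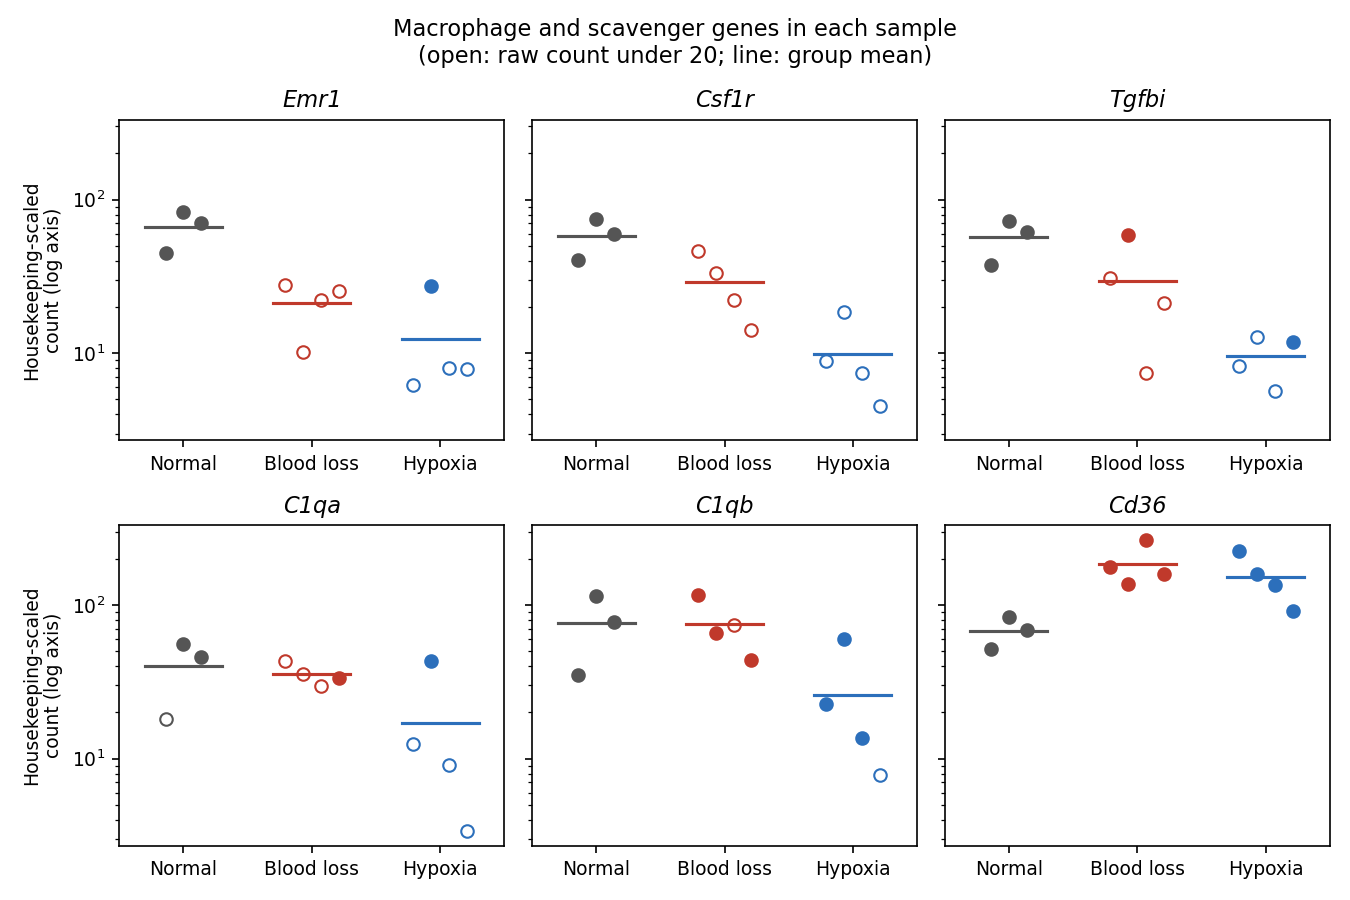
Housekeeping-scaled counts (log axis) of the 6 genes, 1 point per sample, for 3 normal, 4 blood loss and 4 hypoxia samples, with a line at the group mean and open points where the raw count was under 20. Emr1 and Cd36 separate all treated from all normal samples, in opposite directions, and the second hypoxia sample stands above the other 3 in Emr1, Csf1r, C1qa and C1qb.

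Cd36 went the other way. Its scaled count was 52.0, 83.5 and 68.4 in the normal samples, 178, 137, 267 and 160 after blood loss, and 227, 160, 136 and 91.1 after hypoxia. All 8 treated samples lay above all 3 normal ones, and the treatments overlapped. The log2 fold change was 1.39 (SE 0.32, adjusted p 0.00236) for blood loss against normal and 1.16 (SE 0.31, adjusted p 0.00362) for hypoxia against normal, and both calls were kept under all 25 other settings, with changes of 0.98 to 1.79 and 0.90 to 1.77. Of the tested genes 9.22% were called higher after blood loss and 7.09% after hypoxia, and 11.3% and 8.16% lay above all normal samples. Within a sample Cd36 stood at the 77.5th to 78.1st percentile of all endogenous genes in the normal samples, the 89.4th to 94.3rd after blood loss and the 86.5th to 95.1st after hypoxia. Its raw count was 36 or more in every sample, so few-count error weighs less on it than on the other members. The 2 treatments did not differ by the test (-0.23, SE 0.29, adjusted p 0.643, hypoxia against blood loss), and that sign turned under TMM factors (0.10), all 14 housekeeping genes (0.22) and size factors over all genes (0.67).

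The authors' normalized counts, which divide by such size factors, gave the same order against normal for both Emr1 and Cd36. In them Emr1 was 72.3 ± 10.9 in normal (SD, n = 3), 18.1 ± 8.81 after blood loss (n = 4) and 17.9 ± 12.6 after hypoxia (n = 4). Cd36 was 74.6 ± 4.91, 149 ± 27.9 and 236 ± 102 on the same scale. With housekeeping scaling Cd36 was 68.0 ± 15.8, 186 ± 56.7 and 154 ± 56.6, so which treatment had the higher mean depended on the scaling.

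**Figure D2:**
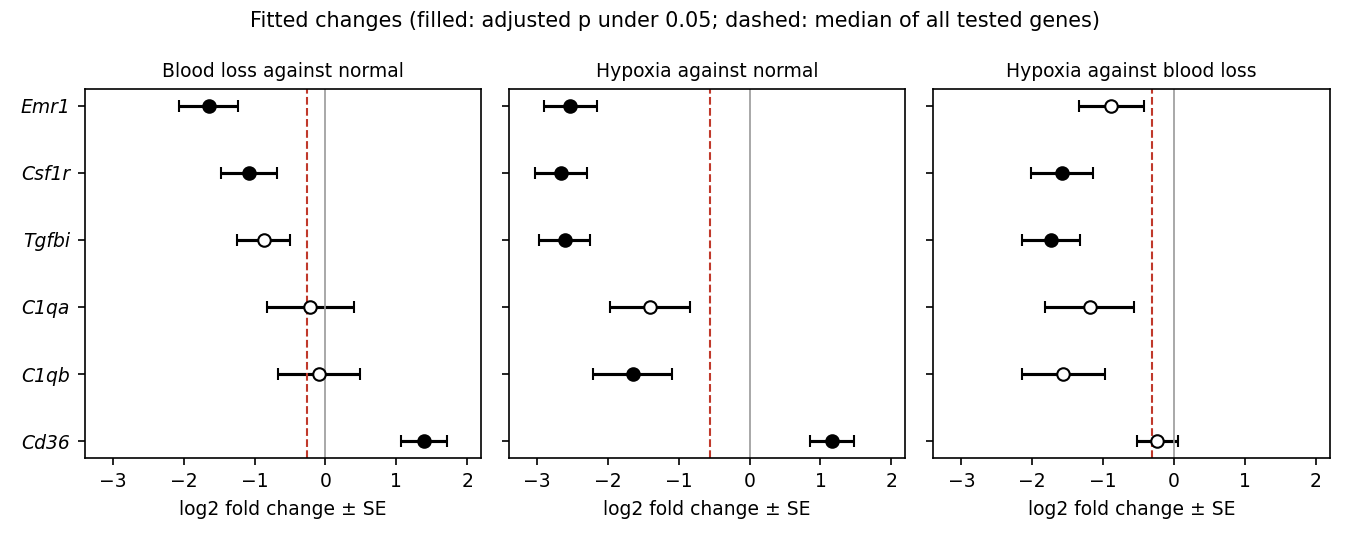
Fitted log2 fold changes of the 6 genes with their standard errors in the 3 comparisons, filled where the adjusted p was under 0.05, with a dashed line at the median of all 282 tested genes. Emr1, Csf1r and Tgfbi sit near -2.6 for hypoxia against normal, and Cd36 is the only member above 0 in the comparisons with normal.

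Both comparisons with normal rest on the same 3 normal samples, so their agreement is not independent. For blood loss against normal 2 of the 6 members were called lower and 1 higher, where 17.0% and 9.22% of all tested genes were. For hypoxia against normal 4 were called lower and 1 higher, where 36.5% and 7.09% were. Csf1r and Emr1 are among the lower ones in both, and Tgfbi after hypoxia, each favoured by the filter as above. These counts therefore support nothing about the members as a group. Without Normal 1 these became 3 and 1 for blood loss and 5 and 1 for hypoxia, and with Normal 1 as the only normal sample 0 and 1 for blood loss and 3 and 1 for hypoxia. That last fit takes its spread from the treated samples and assumes that the lone normal sample varies like them, so a call can be lost through the arm of 1 sample. In it the 3 lower after hypoxia were Emr1, Csf1r and Tgfbi, and Emr1 for blood loss against normal came to -1.07 (adjusted p 0.339). Normal 1 had a total close to that of the second hypoxia sample and the lowest scaled count of the normal samples in all 6 genes, and Normal 2 and Normal 3 were deeper. The part of depth in these differences was not tested.

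For hypoxia against blood loss Csf1r (-1.58, SE 0.44, adjusted p 0.0186) and Tgfbi (-1.74, SE 0.41, adjusted p 0.00683) were called lower, 2 of 6 members, where 10.6% of the tested genes were called lower, 0.709% higher and 11.3% in all. In both genes the groups overlapped, and of all tested genes 15.2% did not overlap, 12.8% with hypoxia below and 2.48% above. Raw counts of Csf1r were 15, 13, 3 and 10 after blood loss and 13, 19, 13 and 8 after hypoxia. Those of Tgfbi were 10, 23, 1 and 15, and 12, 13, 10 and 21. These are few counts that overlap, and the lower level after hypoxia appears after library scaling. Both genes needed normal samples to pass the filter. The other 4 members did not pass, and C1qb had a difference of -1.56 (SE 0.59, adjusted p 0.103). This count rested on single samples. Without the second hypoxia sample 5 members, all but Cd36, were called lower, without the second blood loss sample none was, and without the first blood loss or the third hypoxia sample 1 was. With size factors over all genes or all 14 housekeeping genes none was called.

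**Figure D3:**
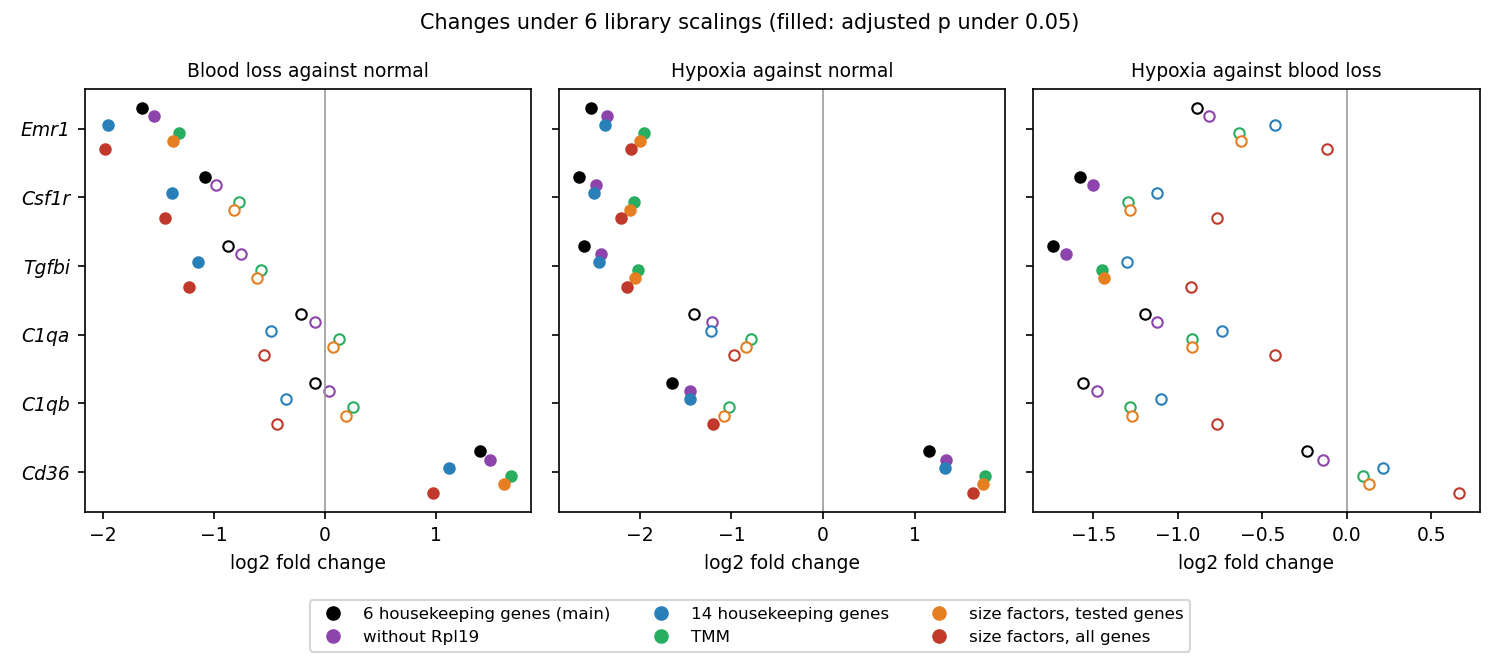
Log2 fold changes of the 6 genes under 6 ways to scale the libraries, filled where the adjusted p was under 0.05. For hypoxia against normal Emr1, Csf1r and Tgfbi lay between -2.66 and -1.95 under all 6, and for hypoxia against blood loss no member was called under size factors over all genes or under 14 housekeeping genes.

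A ratio of raw counts of 2 probes within a sample needs no library factor. It is compared here between samples only, since probes differ in how well they bind. The ratio of Cd36 to Emr1 was 1.15, 1.01 and 0.964 in the normal samples, 6.44, 13.5, 12.0 and 6.33 after blood loss, and 36.6, 5.82, 17.0 and 11.6 after hypoxia. All treated samples stood well above all normal ones, at a geometric mean 8.68 times higher after blood loss and 13.8 times higher after hypoxia. Cd36 to Csf1r was 5.81 and 14.3 times higher, and Cd36 to Tgfbi 6.43 and 13.0 times. Against the C1q chains, Cd36 to C1qa was 2.76 times higher after blood loss and 6.93 times higher after hypoxia in geometric mean, and Cd36 to C1qb 2.60 and 7.59 times higher.

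In all 10 of these comparisons with normal the groups did not overlap, and the two-sided exact permutation test gave 0.0571 in each, which is the smallest p that 3 against 4 samples allow. Adjusted over the 21 tests of 7 ratios and 3 comparisons it was 0.12, so none passed the threshold, and 0 had an unadjusted p under 0.05. The 10 comparisons with normal share the Cd36 counts and the 3 normal samples, so they are not independent. Emr1, Csf1r, C1qa and Tgfbi also needed normal samples to pass the filter. How often ratios of other gene pairs separate the groups was not computed. The ratio of Cd36 to Tfrc, which sets it against another surface receptor of immature red cells, ran from 0.407 to 0.592 in the normal group, 0.352 to 0.593 in the blood loss group and 0.250 to 1.23 in the hypoxia group. Its groups overlapped throughout, with geometric mean ratios of 0.911, 1.03 and 1.13 in the 3 comparisons (exact permutation p 0.743, 0.971 and 0.771). Of the red cell markers 3 were tested. Tfrc was called higher and Cd55 lower in each comparison with normal. Of all tested genes 9.22% were called higher and 17.0% lower after blood loss, and 7.09% and 36.5% after hypoxia. Tal1 had a mean scaled count of 3.01 in the normal samples, 42.2 after blood loss and 32.3 after hypoxia. It needed treated samples to pass the filter, which favoured a higher level there, so its values are a description. Tfrc had log2 fold changes of 1.61 (SE 0.39, adjusted p 0.00303) after blood loss and 1.28 (SE 0.38, adjusted p 0.00733) after hypoxia, and the second became 0.67 (adjusted p 0.0765) without the second hypoxia sample.

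**Figure D4:**
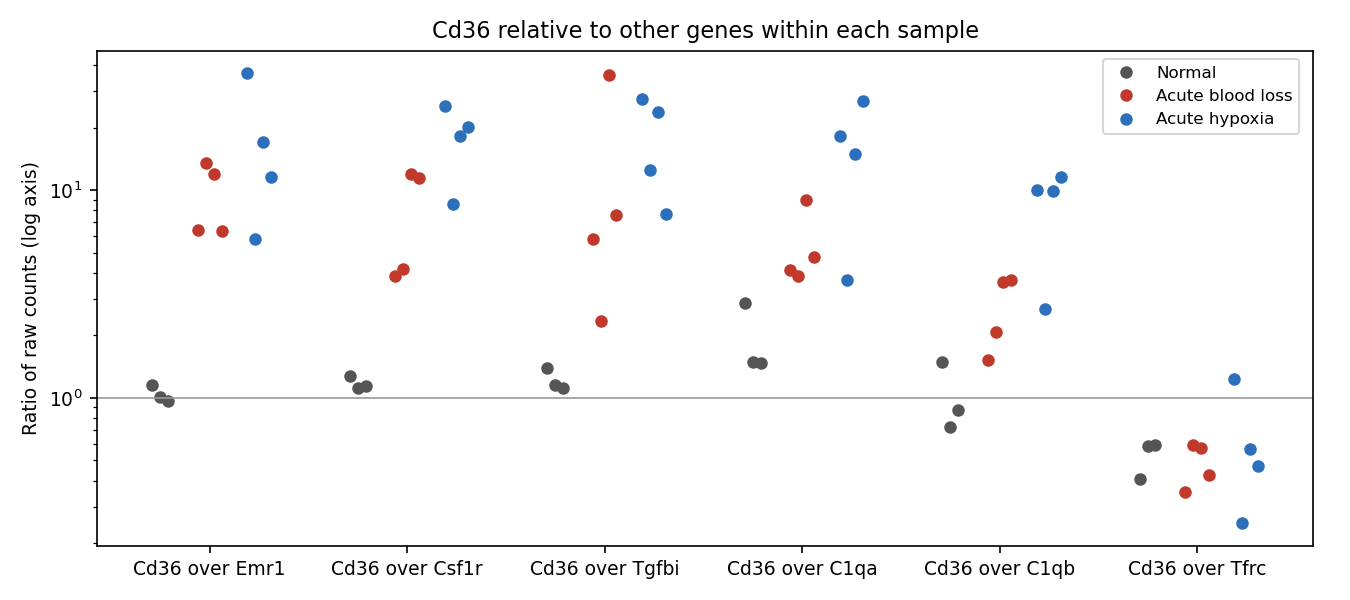
Ratio of the raw count of Cd36 to that of 6 other genes in each of the 11 samples (log axis), coloured by group. Over each of Emr1, Csf1r, Tgfbi, C1qa and C1qb every treated sample lies above every normal sample, and over Tfrc the groups overlap.

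The genes whose profile was most like each member were ranked by the root mean square difference of log2 levels, each gene centred on its own mean over the 11 samples, among 281 other tested genes. A low value means that 2 genes kept one ratio in all samples, a property in which library scaling cancels. C1qa and C1qb were each other's nearest, at 0.33 on the log2 scale. Emr1 came nearest to Tyrobp (0.61), the adaptor that carries the signal of many myeloid receptors, then H2-Ob (0.67) and Fcer1g (0.68), the common chain of Fc receptors. Csf1r came nearest to C1qb (0.58), Ccl9 (0.63), a chemokine, and Fcer1g (0.63), and Tgfbi to Fcer1g (0.66), Ccl9 (0.69) and Ptgs2 (0.70), the inducible cyclooxygenase. Cd36 came nearest to Cd97 (0.34), Cd86 (0.38) and Jak2 (0.41), the kinase of the erythropoietin receptor. It ranked 263rd of 281 for Emr1, 260th for Csf1r, 216th for C1qa, 217th for C1qb and 265th for Tgfbi. The median gene stood at 0.98 to 1.23. These are descriptions over samples that share depth and group.

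Tyrobp passed the test in the same direction as Emr1, with log2 fold changes of -1.62 (SE 0.33, adjusted p 0.000955) after blood loss and -2.46 (SE 0.32, adjusted p 2.25e-06) after hypoxia. On the list of the Csf1r axis, which holds ligands, related growth factor receptors and myeloid factors, 6 of the 8 genes on the panel were tested. Of these 3 were called lower and 1 higher after blood loss, with log2 changes from -1.62 to 1.28 and a median of -0.94. Over all tested genes 17.0% were called lower and 9.22% higher, and the median was -0.26. After hypoxia 3 were called lower and 0 higher, with a median of -0.69, where the share over all genes was 36.5% and the median -0.56. Cebpb, a transcription factor of myeloid cells, was -1.56 (SE 0.32, adjusted p 0.000955) and -1.85 (SE 0.30, adjusted p 3.05e-05), and Irf8, a factor of monocytes and dendritic cells, was called lower after blood loss alone (-1.24, adjusted p 0.00261, and -0.46 after hypoxia, where the sign turned to 0.10 under TMM factors). Against Normal 1 alone, an arm of 1 sample, Cebpb, Irf8 and Tyrobp had -0.86, -1.07 and -0.93 after blood loss and Cebpb -1.15 after hypoxia, none of which passed.

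Of the complement list 5 of 15 panel genes were tested. None was called after blood loss, where 2 had an unadjusted p under 0.05 and 26.2% of all tested genes were called. After hypoxia 2 of the 5 were called lower, close to the 36.5% of all tested genes. One of these was Itgax, a chain of complement receptor 4 that is also a marker of dendritic cells. It reached 20 raw counts only in the normal samples, so the filter favoured a lower level after treatment. Its log2 change was -2.21 (SE 0.44) after hypoxia and -0.53 (SE 0.47) after blood loss. Of the uptake and sensing receptors only 2 of 10 could be tested, and 1 was called in a comparison with normal. That call was lower after hypoxia, where 36.5% of all tested genes were called lower. Cd14, the co-receptor for bacterial lipopolysaccharide, was that gene, at -1.06 after hypoxia and 0.74 after blood loss. It too reached 20 raw counts only in the normal samples, and its call after hypoxia was lost under 9 other settings.

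Upstream of Tgfbi, 5 of 7 genes of the TGF-beta axis were tested. After blood loss 0 was called, also with 0 at an unadjusted p under 0.05, where 26.2% of all tested genes were called. After hypoxia 1 was called higher, where 7.09% of all tested genes were. That gene was Smad3, the signal carrier, at 1.44 (SE 0.35, adjusted p 0.00153) after hypoxia and 0.73 (SE 0.38, adjusted p 0.145) after blood loss. Tgfb1, the ligand, did not pass after either treatment, with -0.52 and -0.34, and the second turned to 0.21 under TMM factors. The first passed under size factors over all genes (-0.95, adjusted p 0.00293), all 14 housekeeping genes (-0.83, adjusted p 0.0142) and DESeq2 (-0.53, adjusted p 0.0357).

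Among adhesion genes of the island 5 of 7 were tested. After blood loss 2, Icam1 and Icam4, were called higher and none lower, and after hypoxia Icam4 was called higher, where 9.22% and 7.09% of all tested genes were. Icam1, a ligand of leukocyte integrins, had scaled counts of 7.91, 13.9 and 8.08 in the normal samples, 52.3, 40.7, 59.3 and 39.4 after blood loss, and 7.58, 3.93, 13.7 and 15.8 after hypoxia. The blood loss samples stood above all others, and the log2 fold change was 2.17 (adjusted p 0.000509) against normal, while hypoxia against blood loss gave -2.10 (adjusted p 0.00157). Icam4, a red cell protein that binds integrins of island macrophages, was singled out after its values were seen. Its raw counts were 1, 5 and 11 in normal, 8, 1, 3 and 21 in blood loss and 10, 63, 21 and 17 in hypoxia samples. It entered the test only through treated samples, so its calls are a description and no test is given.

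Markers of other cells also differed between the groups, in both directions. Of 9 tested T and NK cell markers 5 passed as lower after blood loss and 7 did after hypoxia, and of 9 B cell markers 2 and 5, with none higher, beside 17.0% and 36.5% of all tested genes. The B cell count after blood loss is near that share. The summed scaled count of the B cell markers was 2006 to 4060 in the normal group, 1504 to 2469 after blood loss and 1371 to 2098 after hypoxia, and that of the T and NK cell markers 1176 to 1354, 729 to 1164 and 553 to 980. Monocyte and granulocyte markers summed to 1953 to 2719 in the normal group, 3189 to 7145 after blood loss and 1714 to 3865 after hypoxia. Of their 5 tested genes 2 were called higher and 2 lower after blood loss, and 1 higher and 2 lower after hypoxia. Their sum therefore hides opposite changes. The median sums of dendritic cell markers were 284, 604 and 772. Of their 2 tested genes none was called after blood loss, and 1 was called higher and 1 lower after hypoxia. No list's markers were all under a raw count of 20, other than the macrophage list in the treated groups. The part of these cells in the values of Emr1, Csf1r, C1qa, C1qb, Tgfbi and Cd36 was not tested.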

How the data were processed

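RNA counts of Ter-119 selected spleen cells were analysed in 11 of 12 deposited samples. The members and gene lists were chosen with earlier results of these data known. The authors deposited raw counts, whole numbers of 1 or more, for 561 genes. The deposited normalized signal is that count over the sample's median-of-ratios size factor, as recomputed here, and the deposited log2 table holds log2 of that signal plus 1, within 0.00500. Counting software and background handling were not given in the sources used here.

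One edgeR 4.0.16 fit (robust quasi-likelihood, R 4.3.3) took all 11 samples and a term for group. Each library was scaled by the geometric mean of Rpl19, Ppia, Polr2a, Oaz1, Gapdh and Eef1g, the housekeeping genes that averaged 100 or more raw counts. A gene was tested where at least 3 samples had 20 or more raw counts, the size of the smallest group, and called where its p, adjusted by Benjamini-Hochberg over all 282 tested genes, was under 0.05. Scaled counts are raw counts over that factor. Ratios of probes were compared by exact permutation (scipy 1.17.1). The script was tested on simulated counts. Counts carry counting error beside the spread between samples, and low counts are the least precise. Replicates differed by more than counting error (lowest chi-square per degree of freedom 1.85), so none was counted as a copy.

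Genes named are the 6 members, Tfrc, Ptprc and Tyrobp, up to 4 tested genes of each list with the highest mean level, and the 3 nearest genes of each member; not all are reported, and those followed through every alternative were picked after values were seen. Icam4 was added after its values were seen. Vcam1, Fcgr1, Cd163, Marco, Msr1, Trem2 and Kit are named as a check of cell type. Alternatives were other library factors (TMM, median-of-ratios, all 14 housekeeping genes, no Rpl19), other filters, DESeq2 1.42.0, limma 3.58.1, all 12 columns, a replicate block, single samples left out, only the 2 groups compared and, chosen after seeing the data, Normal 1 as the only normal sample, the lower quartile subtracted and size factors over the tested genes.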

Additional observations from a re-analysis of the deposited data

Results flagged for a closer look

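In groups of 4 samples the highest or lowest value was compared with the rest of its group by its gap over the group's range. Of 26 groups tested 2 had a sample far from the others, and chance gives about 1 in 20. Both lie in the second hypoxia sample. Its scaled count of Emr1 was 27.54, against 6.20 to 7.99 in the other 3 hypoxia samples, a gap of 0.916 of the range. Its log2 ratio of Cd36 to C1qb was 1.418, against 3.31 to 3.53 in the other 3, a gap of 0.895 of the range. Without this sample the hypoxia to normal change of Emr1 was still called, as in every other setting run.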

How the results depend on the processing

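Across 25 other settings Cd36 against normal (both treatments) and Emr1 and Tgfbi for hypoxia against normal kept direction and call. The filter of 20 in 4 samples left Csf1r untested. Members called numbered 3, 5 and 2 for blood loss against normal, hypoxia against normal and hypoxia against blood loss. The first fell to 1 with Normal 1 as the only normal sample, a lone sample assumed to vary like the others, and the third to 1 with TMM factors, with the 4-sample filter, with the lower quartile subtracted and with size factors over tested genes, and to 0 with size factors over all genes and with all 14 housekeeping genes. Leaving out single samples gave 2 to 4, 4 to 6 and 0 to 5. No ratio of probes against normal could pass at these sample numbers, and none between the treatments did.

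Replicate numbers did not pair samples: of 10 same-number pairs 1 correlated above 0.1 (-0.29 to 0.11). With the replicate block 2, 6 and 3 members were called, and C1qa and C1qb for blood loss against normal turned to 0.22 and 0.35, Icam1 for hypoxia against normal to -0.023 and Icam4 for hypoxia against blood loss to -0.27.

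Other signs turned, some near 0 and others as far as 1.06 and -1.08, and none of the turned values was called. For blood loss against normal C1qa became 0.13 with TMM, 0.071 with tested-gene size factors and 0.99 with Normal 1 only, and C1qb became 0.25, 0.19 and 1.06, 0.032 without Rpl19 and 0.053 with limma. For hypoxia against blood loss Cd36 became 0.10 with TMM, 0.67 with all-gene size factors, 0.22 with 14 housekeeping genes and 0.13 with tested-gene size factors, Tfrc 0.47 and 0.12 with all-gene size factors and 14 housekeeping genes, Cebpb 0.54, 0.17 and 0.011 with the last 3 settings, and Tyrobp 0.058 with all-gene size factors. For hypoxia against normal Irf8 became 0.10 and 0.073 with TMM and tested-gene size factors, Tgfb1 0.21 and 0.18 with these and 0.10 with all-gene size factors, and Icam1 -0.0741 with limma and -0.062 with 12 columns. Leaving out single samples gave -0.50 to 0.075 for C1qa and -0.43 to 0.32 for C1qb (blood loss against normal), -0.20 to 0.40 for Icam1 (hypoxia against normal) and -1.08 to 0.54 for Icam4 (hypoxia against blood loss). For the log2 ratio of Cd36 to Tfrc it gave -0.31 to 0.00926, -0.36 to 0.41 and -0.22 to 0.54 for blood loss against normal, hypoxia against normal and hypoxia against blood loss, and for C1qa to C1qb -0.30 to 0.058 for blood loss against normal. The cause was not tested.

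Over all genes scaling moved the balance of calls. Higher and lower calls for blood loss against normal were 26 and 48, but 41 and 37 with TMM, 39 and 38 with tested-gene size factors, 15 and 93 with 14 housekeeping genes, 14 and 122 with all-gene size factors, 21 and 26 without Normal 2, 18 and 29 without the blood loss sample 4 and 9 and 13 with Normal 1 only. For hypoxia against normal they were 20 and 103, but 57 and 53 with TMM, 56 and 55 with tested-gene size factors, 52 and 63 with all-gene size factors and 4 and 30 with Normal 1 only, and for hypoxia against blood loss 2 and 30, but 8 and 15 with TMM or tested-gene size factors, 5 and 2 with 14 housekeeping genes, 93 and 3 with all-gene size factors, 1 and 9 with the lower quartile subtracted, and from 1 and 11 (without blood loss 2) to 4 and 47 (without Normal 1) with single samples left out. With no filter they were 183 and 64, 34 and 162, and 5 and 230. Depth limits these values: no blood loss sample had a raw count of 20 for Emr1, and no treated sample had one for Csf1r.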

Other observations

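The ratio of C1qb to Emr1 raw counts, chosen after its values were seen and not tested, was 0.775, 1.40 and 1.10 in the normal samples, 4.22, 6.50, 3.33 and 1.72 after blood loss, and 3.67, 2.18, 1.71 and 1.00 after hypoxia. All 4 blood loss samples lay above the normal ones, whereas hypoxia samples ran from the normal range into the blood loss range.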
